A study of Mus musculus with 13 samples.

Results

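The 10 genes Gzma, Gzmb, Gzmk, Gzmm, Prf1, Nkg7, Fasl, Ccl5, Eomes and Tbx21 make up a set of cytotoxic effector genes, and were matched by gene name. Each name occurred once in the gene list of the Parse WT kit and once in that of the Parse Mini kit, so the 10 members were found among the 57010 genes of either list. Their unique molecular identifiers (UMIs) were examined in natural killer (NK) cells, CD8 T cells and other T cells of the Parse WT kit, and in CD8 lineage and innate-like thymocytes of both kits.

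Cytotoxic lymphocytes kill a target cell by releasing granules that hold perforin, which opens pores in membranes, and granzymes, proteases that enter through them and trigger death from within. Another route uses Fas ligand, a surface protein that engages the death receptor Fas. The related T-box transcription factors T-bet (Tbx21) and Eomesodermin (Eomes) direct this programme in NK cells and in CD8 T cells after activation. CD8 T cells leave the thymus before they have met antigen, whereas some innate-like T cells acquire effector genes while still in the thymus.

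The study compared single-cell RNA-seq kits on mouse thymus. The Parse WT kit, which marks fixed cells by rounds of well barcodes, held 20 tissue samples that the labels describe together as thymus and spleen, from control and chronic stress conditions. Of these, 4 were thymic samples (tenxP_1 to tenxP_4), and the other 16 carry the names CVS_C_1 to CVS_C_5, CVS_S_1 to CVS_S_6 and YD_C_1 to YD_C_5. The study's text calls these other samples non-thymic. A cluster of 2245 of their cells carried the markers of double-positive (DP-R) thymocytes, with Rag1 at 413 CPM. The labels do not tie these names to a tissue, age or treatment, so the 16 samples were left ungrouped and are given by value, range and median, with no comparison among them. The Parse Mini kit held 4 control thymic samples (T-1-A, T-1-B, T-2-A and T-2-B). The thymic samples of each kit were the separated lobes of 2 female C57BL/6N mice aged 2 months, so lobes of the same mouse are not independent, and the kits used different mice.

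After filtering, 79860 cells of the 16 other samples, 37519 cells of the 4 WT thymic samples and 18365 cells of the Mini samples were kept, with medians of 2877, 3112 and 2583 UMIs per cell. Cells were clustered with the 10 members left out of the clustering genes, and clusters were named from marker lists that hold none of the members. Every class name rests on such markers, which the ending "-like" recalls for NK and T cells. Levels are given as CPM, the UMIs of a gene in all cells of a class scaled to 1000000 UMIs outside ribosomal RNA. The intervals in parentheses are 95% exact Poisson intervals for a level or for a ratio, and exact binomial intervals for a share of cells, and all of them cover counting error only. Cells are not replicates and classes were taken from the same libraries, so no test was run on the differences between classes. Samples CVS_C_3 and CVS_C_5 stood apart in B cell clusters of 3487 and 2406 cells, of which they gave 99.3% and 99.0%, and no NK or T class rests on these clusters. The classes moved with the random seed of the clustering, and the range over 5 seeds is given where it passed 1.5-fold.

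The 16 other samples gave 1139 NK-like cells, 5493 CD8 T-like cells and 8990 other T-like cells. The NK-like cells carried the defining NK receptor gene Ncr1 at 696 CPM, against 0.171 to 7.72 CPM in the 4 clusters of CD8 T-like cells. The T cell gene Cd3e was at 106 CPM in the NK-like class against 296 to 418 CPM in those clusters, and the B cell gene Cd79a at 5.29 CPM. A further 5094 lymphocytes that also carried B cell markers were set apart as mixed and are in no class. They include a cluster of 406 cells with Ncr1 at 272 CPM, Cd79a at 196 CPM and Gzma at 199.7 CPM.

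The members lie on chromosomes 1, 7, 9, 10, 11, 13 and 14 of the mouse genome (build GRCm38, GENCODE M21). Gzma (chr13:113093825-113100981, minus strand) and Gzmk (chr13:113171608-113225908, minus strand) are on the same strand of chromosome 13, and the pooled levels of this pair differed in opposite directions between NK-like and CD8 T-like cells. The promoters of the pair are given beside that of Nkg7, which holds a T-box core motif close to its start site. Each run covers 250 bases before to 50 bases after the RefSeq start site (GRCm38.p6), 5′ to 3′ on the strand of the gene, and capitals mark GGTGTGA, the T-box core searched on both strands.
Gzma promoter, chr13:113100932-113101231, minus strand: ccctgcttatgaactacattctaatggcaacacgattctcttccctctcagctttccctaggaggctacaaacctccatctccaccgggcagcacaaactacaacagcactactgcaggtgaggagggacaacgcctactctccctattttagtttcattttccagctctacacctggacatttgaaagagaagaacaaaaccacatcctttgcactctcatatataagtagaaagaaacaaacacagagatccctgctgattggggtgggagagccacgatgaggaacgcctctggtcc
Gzmk promoter, chr13:113180916-113181215, minus strand: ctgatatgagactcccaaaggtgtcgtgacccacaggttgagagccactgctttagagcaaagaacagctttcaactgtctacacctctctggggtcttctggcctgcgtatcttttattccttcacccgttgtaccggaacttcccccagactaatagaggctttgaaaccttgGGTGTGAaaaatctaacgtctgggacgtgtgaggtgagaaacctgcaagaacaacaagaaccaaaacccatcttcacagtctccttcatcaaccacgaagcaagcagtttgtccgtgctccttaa
Nkg7 promoter, chr7:43436888-43437187, plus strand: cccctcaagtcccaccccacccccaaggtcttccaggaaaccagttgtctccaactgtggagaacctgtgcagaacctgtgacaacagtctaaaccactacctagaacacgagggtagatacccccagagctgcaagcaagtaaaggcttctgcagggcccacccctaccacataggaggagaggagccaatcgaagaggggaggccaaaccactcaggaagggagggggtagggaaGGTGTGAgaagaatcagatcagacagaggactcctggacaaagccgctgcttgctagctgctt
The motif GGTGTGA, searched on both strands, occurred in 3.98% of the 32851 RefSeq promoters of the same length. Among the members it was found 6 bases before the start site of Nkg7, 68 bases before that of Gzmk, and in the second of the 2 Gzmm entries, 182 bases before the start site. It was not in the windows of Gzma, Gzmb, Prf1, Fasl, Eomes or Tbx21, and Ccl5 was not examined. The RefSeq window of Gzmk lies inside the longer GENCODE gene given above, so these sources place its start differently. A match is a run of letters and does not show binding.

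Among the 16 classes of the other samples, NK-like cells had the highest pooled level of each member but Gzmk and Gzmm. No share of all genes was taken for this ranking. The members together reached 1989.8 CPM (1934 to 2046) in NK-like cells. CD8 T-like cells reached 355 CPM (345 to 366) and other T-like cells 84.6 CPM (80.6 to 88.8). In B cells, a class that should lack most of this programme, the sum was 23.9 CPM, of which Tbx21 alone gave 16.2 CPM and the other members 0.0698 to 2.80 CPM each. At least 1 UMI of a member was found in 88.2% of NK-like cells (86.2 to 90.0), 37.8% of CD8 T-like cells, 11.6% of other T-like cells and 6.12% of B cells. The median depths of these classes were 1661, 1781, 1776 and 2392 UMIs outside ribosomal RNA. With each cell thinned to 1000 such UMIs and shallower cells left out, the shares were 77.9%, 23.4%, 6.64% and 2.39%, in the same order.

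**Figure D1:**
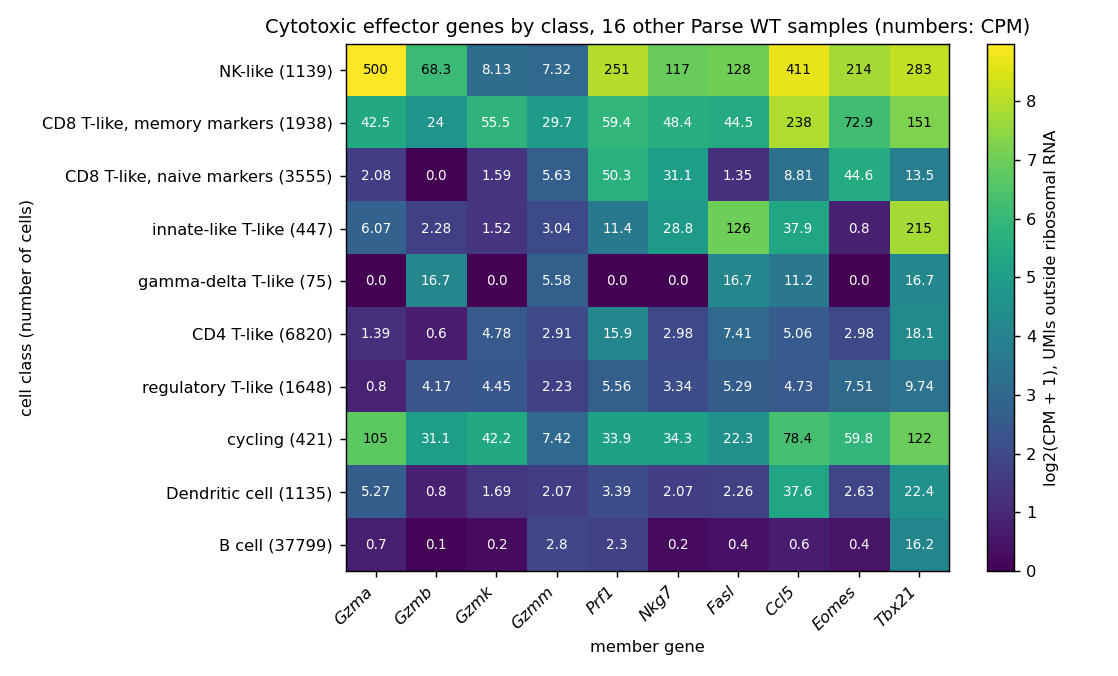
Levels of the 10 members (columns) in classes of the 16 other Parse WT samples (rows, with cell numbers), coloured by log2(CPM + 1) and labelled with the CPM. The NK-like row is brightest for 8 members, whereas Gzmk (8.13 CPM) and Gzmm (7.32 CPM) are higher in CD8 T-like cells with memory markers (55.5 and 29.7 CPM).

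The granzymes divided into those that were abundant in NK-like cells and those that were not. Gzma, a granzyme that cuts after basic residues, ranked first among the members per kilobase of exon in NK-like cells, at 497 CPM per kilobase. Per kilobase of gene span it ranked below Nkg7 and Ccl5, at 69.9 against 99.5 and 86.8 CPM per kilobase. Over the 13 samples with at least 20 NK-like cells it ran from 0 CPM in CVS_S_1 (22 cells) through a median of 382 CPM to 915 CPM in CVS_S_2 (25 cells). In CD8 T-like cells of the 16 samples it ran from 0 CPM through a median of 10.6 CPM to 169 CPM in CVS_S_6. Gzma was higher in NK-like than in CD8 T-like cells in 12 of the 13 samples and at 0 in both classes in CVS_S_1, and the pooled levels of 500.1 and 15.1 CPM stood in a ratio of 33.0 (28.3 to 38.8). Over 5 seeds its NK-like level ran from 497 to 841 CPM, for classes of 725 to 1144 cells.

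Gzmb (chr14:56258838-56262260, minus strand), which cuts after aspartate and activates caspases in the target, had 68.3 CPM in NK-like and 7.78 CPM in CD8 T-like cells, a ratio of 8.78 (6.78 to 11.4). In NK-like cells it ran from 0 CPM through a median of 48.7 CPM to 192 CPM in CVS_C_4, with 3 samples at 0, and from 67.8 to 119 CPM over the seeds. In CD8 T-like cells the sample values ran up to 56.4 CPM, so the classes overlapped, and NK-like cells were the higher in 10 of 13 samples.

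Gzmk and Gzmm went the other way. Gzmk, a relative of Gzma, had 8.13 CPM (4.97 to 12.6) in NK-like and 19.0 CPM (16.7 to 21.7) in CD8 T-like cells, a ratio of 0.427 (0.256 to 0.675), and was higher in CD8 T-like cells in 11 of 13 samples. Its NK-like level ran from 7.74 to 11.8 CPM over the seeds. Gzmm (chr10:79689020-79695261, plus strand), which prefers to cut after methionine, had 7.32 CPM (4.34 to 11.6) against 13.4 CPM (11.4 to 15.6), a ratio of 0.546 (0.316 to 0.891), and was higher in CD8 T-like cells in 10 samples. These levels rest on 20 and 18 UMIs in NK-like cells, and 5 and 7 of the 13 samples had none, so a value of a single sample has little precision. The Gzmk gene overlaps Esm1 on the other strand, and no source used here says whether the counting used strand, so reads of the pair may not be told apart.

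The genes of the pore and of the granule membrane were both higher in NK-like cells. Prf1 (chr10:61297833-61304680, plus strand), which encodes perforin, ran from 0 CPM in CVS_S_4 through a median of 192 CPM to 301 CPM in YD_C_1 in NK-like cells. In CD8 T-like cells it ran from 19.8 through 49.7 to 76.8 CPM. NK-like cells were the higher in 11 of 13 samples, with a pooled ratio of 4.72 (4.22 to 5.28) and a level of 251 to 408 CPM over the seeds. Nkg7 (chr7:43437073-43438249, plus strand), a membrane protein of cytotoxic granules, ran from 28.6 through 104 to 151 CPM in NK-like cells and from 0 through 39.4 to 70.5 CPM in CD8 T-like cells. It was higher in NK-like cells in 12 samples, with a ratio of 3.19 (2.74 to 3.71).

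The death ligand and the chemokine showed the same direction. Fasl (chr1:161780689-161788495, minus strand) ran from 26.8 CPM in CVS_C_2 through a median of 130.3 CPM to 274 CPM in CVS_S_2 in NK-like cells, and was higher there than in CD8 T-like cells in each of the 13 samples, with a ratio of 8.39 (6.98 to 10.1). Its values among CD8 T-like cells were uneven, from 1.67 CPM in YD_C_5 through a median of 14.5 CPM to 116 CPM in CVS_C_4. Without CVS_C_4 the pooled CD8 T-like level fell from 15.3 to 9.70 CPM. Ccl5 (chr11:83525778-83530518, minus strand), a chemokine that attracts T cells and monocytes, ran from 71.0 through 328 to 604 CPM in NK-like cells and from 33.2 through 81.9 to 395 CPM in CD8 T-like cells. The ratio of its pooled levels was 4.96 (4.54 to 5.42), and NK-like cells were the higher in 11 samples.

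Both T-box factors were higher in NK-like cells. Tbx21 (chr11:97098071-97115331, minus strand) ran from 114 CPM in CVS_S_1 through a median of 286 CPM to 494 CPM in CVS_S_2 in NK-like cells, and was higher there than in CD8 T-like cells in each of the 13 samples. Eomes (chr9:118478212-118486132, plus strand) ran from 26.8 CPM in CVS_C_2 through 165 CPM to 269 CPM in YD_C_5, and was higher in NK-like cells in 11 samples. Their pooled ratios were 4.89 (4.40 to 5.44) and 3.98 (3.54 to 4.48). For each of the 10 members the sample ranges of the NK-like and CD8 T-like classes overlapped.

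By the rule that a gene be higher in NK-like cells in each of the 13 samples, 2 of 10 members were called, Fasl and Tbx21, against a background of 2.35% of the 9199 genes with at least 100 UMIs in both classes together. By a pooled level at least 2-fold higher in NK-like cells, 8 of 10 members were called, against 6.64%. At least 2-fold higher in CD8 T-like cells was 1 of 10, Gzmk, against 6.41%. The 16 samples held between 8 and 290 NK-like cells each. In the 5 samples with at least 100 NK-like cells (YD_C_1 to YD_C_5), 8 members were higher in NK-like cells in each sample, a restriction chosen after seeing the data. A rule over 5 samples is easier to pass, and the background was 18.5% of 8234 genes with at least 100 UMIs in these samples, a bar that 9 of the members reached. The 10 first-round wells with at least 20 cells of both classes are 2 wells of each of these 5 samples, so the 8 members higher in each well are not a separate count, and the background there was 8.11%. Leaving out CVS_C_1 or CVS_S_1 raised the count over samples to 3, by adding Nkg7 or Gzma, with backgrounds of 2.69% and 2.77%.

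**Figure D2:**
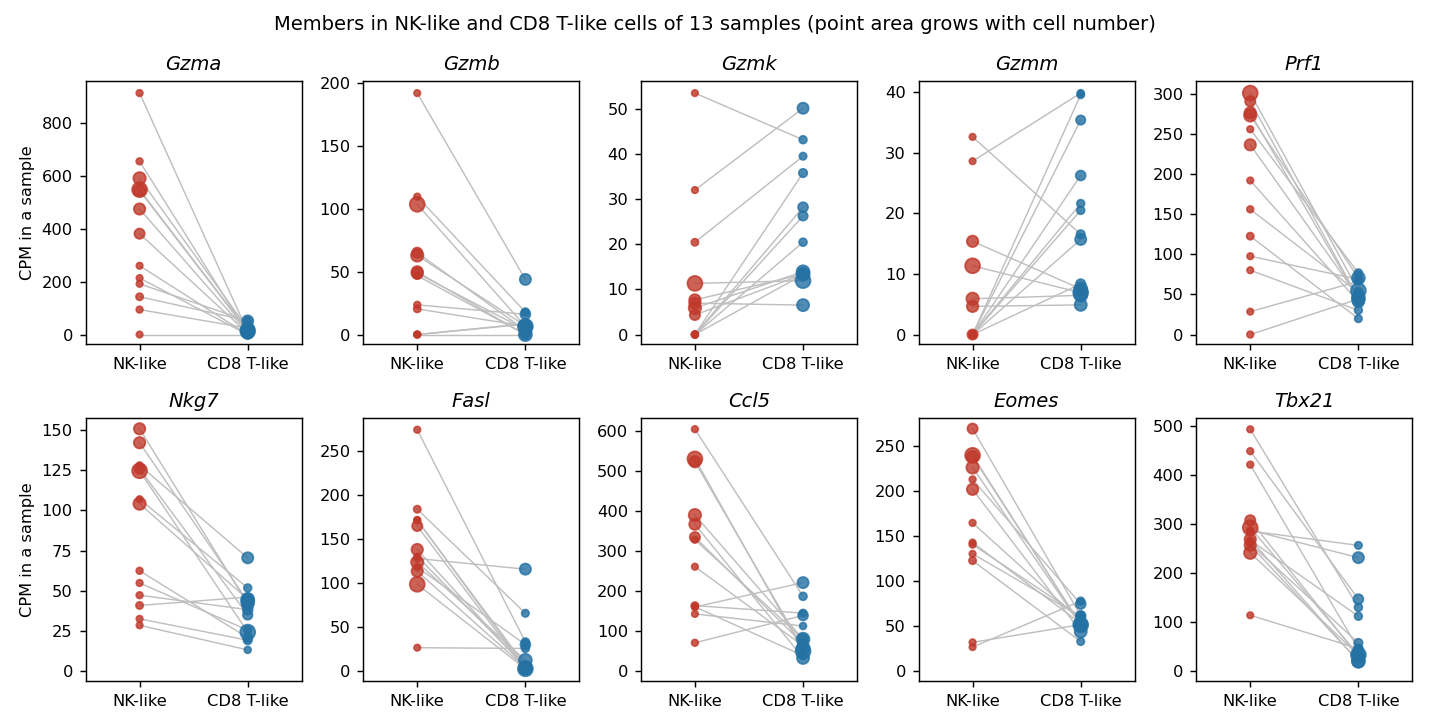
CPM of each member in NK-like (red) and CD8 T-like (blue) cells of the 13 samples with at least 20 cells of both classes. Grey lines join the values of a sample, and larger points hold more cells. Fasl and Tbx21 fall from left to right in 13 of 13 samples and Gzma in 12, while Gzmk rises in 11.

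Single NK-like cells could hold UMIs of several members. Of these cells 68.8% had UMIs of 2 or more members and 48.6% of 3 or more, against 13.02% and 4.86% of CD8 T-like cells. Gzma and Prf1 were found together in 261 NK-like cells, Gzma without Prf1 in 258 and Prf1 without Gzma in 139. Prf1 was thus found in 50.3% of the NK-like cells with Gzma and in 22.4% of those without. Of the 132 NK-like cells with Gzmb, 95 also had Gzma. Eomes and Tbx21 were found together in 133 cells, Eomes without Tbx21 in 232 and Tbx21 without Eomes in 280. Tbx21 was found in 36.4% of the cells with Eomes and in 36.2% of those without. These shares are a description over pooled cells and move with the depth of each cell and with the division of the class described next, and the part of either was not tested. At this depth a missing UMI does not show that a cell lacks the transcript.

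The NK-like class was not uniform in its effector genes. When the cells were clustered at 2 times the resolution, 718 of the 1139 cells were again named NK-like and 421 were not, 408 of which fell among the mixed cells. This division was made after seeing the data, and a clustering at the first resolution with another seed gave an NK-like class of 725 cells whose members summed to 2964 CPM. The cells named NK-like in both clusterings had Gzma at 849.7 CPM against 139 CPM in the rest, a ratio of 6.12 (5.19 to 7.24). Gzma was found in 62.8% and 16.2% of the cells of these parts and Prf1 in 45.3% and 17.8%, at median depths of 1466 and 2384 UMIs. Gzmb differed by a ratio of 8.07 (4.93 to 13.98) and Prf1 by 4.84 (3.91 to 6.04). Ccl5, Nkg7, Fasl and Tbx21 differed less, with ratios of 2.83, 2.61, 2.36 and 2.26. Eomes was at 241 and 187 CPM, a ratio of 1.29 (1.08 to 1.54), and the intervals of Gzmk and Gzmm spanned 1.

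The 5 samples YD_C_1 to YD_C_5 had at least 20 cells of each part. In these, Gzma ran from 669.6 to 1004 CPM in the cells named NK-like in both clusterings and from 131 to 244 CPM in the rest, with no overlap. Gzmb, Prf1, Ccl5, Fasl and Tbx21 were likewise higher in 5 of 5 samples, Nkg7 and Eomes in 4, and Gzmk and Gzmm in 3. The parts were divided by a clustering on the expression of these cells, and 11.4% of the 4411 genes with at least 100 UMIs were higher in 5 of 5 samples, so these counts are a description of the division. Genes outside the set differed as well, and the ones named here were picked after their values were seen. Zeb2, a transcription factor of mature NK cells, was at 1667 and 472 CPM, the integrin gene Itga2 at 929 and 369 CPM and Ncr1 at 918 and 467 CPM. The NK cell gene Il2rb was at 866 and 814 CPM, a ratio of 1.06 (0.974 to 1.16). In the other direction, Tcf7, a factor of T cells and immature NK cells, was at 101 and 574 CPM, the interleukin-7 receptor gene Il7r at 55.2 and 355 CPM, and Cd3e at 18.4 and 197 CPM. Of the B cell genes Pax5 was at 34.4 and 38.0 CPM and Cd79a at 4.00 and 6.61 CPM, and the intervals of their ratios spanned 1. The part that T cell transcripts or doublets play in this division was not tested.

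**Figure D3:**
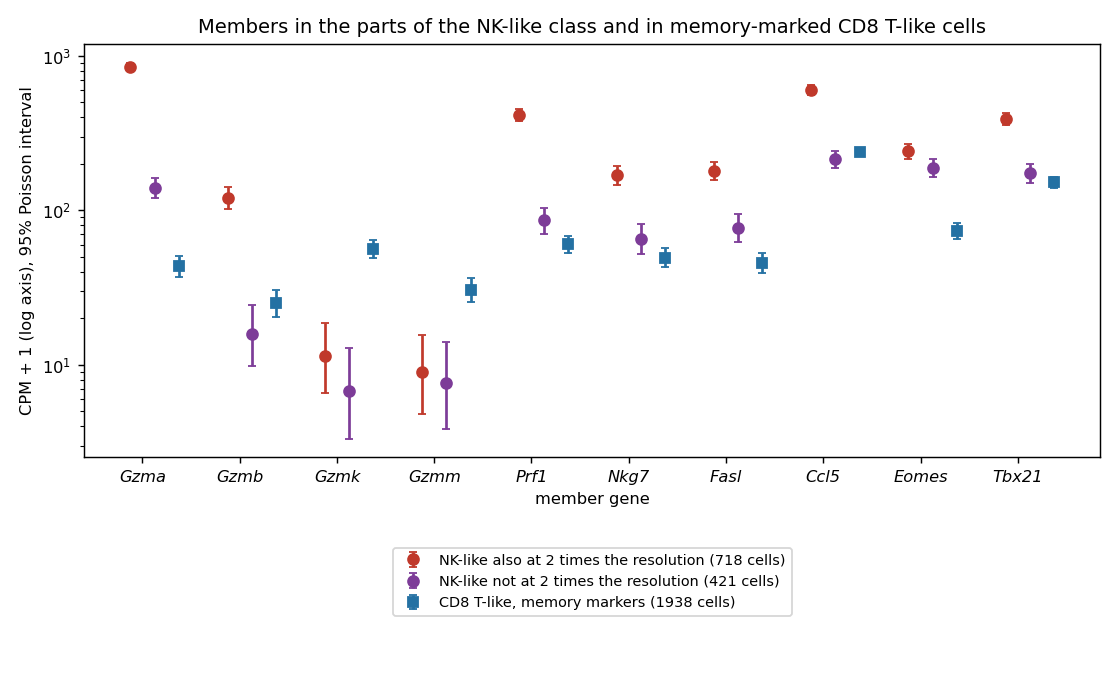
CPM + 1 (log axis) of each member with 95% Poisson intervals in NK-like cells that were named so at both resolutions (718 cells, red), in the other NK-like cells (421, purple) and in CD8 T-like cells with memory markers (1938, blue). Eomes differs little between the red and purple points (241 and 187 CPM), whereas Gzma (849.7 and 139 CPM) and Gzmb (120.0 and 14.9 CPM) are far apart.

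Among CD8 T-like cells the members were carried mostly by the 1938 cells with memory markers, where they summed to 766 CPM (739 to 794), against 159 CPM (150.4 to 168) in the 3555 cells with naive markers. At least 1 member UMI was found in 60.1% and 25.7% of these cells, and in 45.4% and 13.5% at 1000 UMIs. Ccl5 showed a wide step, with 238 CPM in memory-marked and 8.81 CPM in naive-marked cells. Gzma had 42.5 and 2.08 CPM, Gzmk 55.5 and 1.59 CPM, Fasl 44.5 and 1.35 CPM, and Tbx21 151 and 13.5 CPM. Gzmb had 24.0 CPM in memory-marked cells and no UMI in the naive-marked cells, where 3 counts would be 0.367 CPM.

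For Prf1, Nkg7 and Eomes this step was small. Prf1 had 59.4 CPM (52.0 to 67.5) in memory-marked and 50.3 CPM (45.5 to 55.4) in naive-marked cells. Nkg7 had 48.4 and 31.1 CPM, and Eomes 72.9 and 44.6 CPM. Naive-marked CD8 T-like cells held these 3 genes above the level of B cells (2.30, 0.210 and 0.372 CPM), with Gzma, Gzmb, Gzmk and Gzmm at 0 to 5.63 CPM. Per kilobase of exon the naive-marked cells ranked Nkg7, Prf1 and Eomes in this order at the top, at 34.0, 19.5 and 10.7 CPM per kilobase. The memory-marked cells ranked Ccl5, Tbx21 and Nkg7, at 248, 60.7 and 52.9. Per kilobase of gene span the memory-marked cells ranked Ccl5, Nkg7, Eomes and Tbx21, at 50.2, 41.1, 9.20 and 8.74.

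The memory-marked cells fell into 2 clusters with different members. A cluster of 916 cells led by Ccl5, Lilrb4b and Gzmk had Ccl5 at 487 CPM, Tbx21 at 281 CPM, Gzma at 110.2 CPM, Gzmk at 107 CPM, Fasl at 106 CPM and Gzmb at 63.9 CPM. The other, of 1022 cells with Lhfp and Dlg5 among its leading genes, had Ccl5 at 95.8 CPM, Tbx21 at 76.5 CPM, Gzmk at 26.2 CPM, Fasl at 9.26 CPM, Gzma at 3.62 CPM and Gzmb at 1.21 CPM. Gzmm stood apart from the other granzymes, with 16.9 CPM in the first and 37.0 CPM in the second. Sample CVS_C_4 gave 32.5% of the cells of the first cluster and CVS_C_5 gave 24.0% of those of the second. The levels of these clusters without those samples were not computed. Over the 16 samples with at least 20 memory-marked cells, the summed members ran from 349 CPM in CVS_C_5 through a median of 777 CPM to 1920.1 CPM in YD_C_3.

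Other T-like cells had little of the programme, apart from a class of 447 innate-like T-like cells marked by Zbtb16, the factor that directs innate-like T cell development. In this class Tbx21 stood at 215 CPM (191 to 242) and Fasl at 126 CPM (108 to 147). Over the 8 samples with at least 20 such cells Fasl ran from 40.7 CPM in CVS_S_3 through 114 CPM to 186 CPM in CVS_C_2. Eomes had 1 UMI in the class, or 0.759 CPM, and Tbx21 was found without Eomes in 153 cells and with it in 1. Ccl5 had 37.9 CPM, Nkg7 28.8 CPM and Prf1 11.4 CPM, while the 4 granzymes had 1.52 to 6.07 CPM. In NK-like cells Tbx21 was at 283 CPM and Fasl at 128 CPM.

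The 6820 CD4 T-like cells carried Tbx21 at 18.1 CPM and Prf1 at 15.9 CPM, and the 8 other members at 0.623 to 7.41 CPM. Their Tbx21 level was close to the 16.2 CPM of B cells. The 1648 regulatory T-like cells had no member above 9.74 CPM, the level of Tbx21. Gamma-delta T-like cells numbered 75, with 0 to 3 UMIs of each member, where 3 counts are 16.7 CPM, and their number ran from 75 to 549 over the seeds. A cycling class of 421 cells, with T, NK and B cell genes mixed, held Tbx21 at 122 CPM, Gzma at 105 CPM, Ccl5 at 78.4 CPM and Gzmk at 42.2 CPM, below the 55.5 CPM of Gzmk in memory-marked CD8 T-like cells.

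The other genes of the killing machinery were taken as a list of 38. Of these 24 had at least 100 UMIs in the NK-like and CD8 T-like cells together, and 9 of the 24 were at least 2-fold higher in NK-like cells, 1 was at least 2-fold lower, and 2 (Serpinb6b and Id2) were higher in NK-like cells in each of the 13 samples. The background over the 9199 genes was 6.64%, 6.41% and 2.35% for these calls in turn. All 3 granzyme inhibitors of the list were among the 9. Serpinb9, which blocks granzyme B, had 128 CPM in NK-like and 13.6 CPM in CD8 T-like cells, Serpinb6b 99.2 and 6.79 CPM, and Serpinb9b 54.1 and 0.0827 CPM. Of the transcription factors, Zeb2 had 1079 and 128 CPM, Id2 137 and 31.5 CPM, Prdm1 81.7 and 12.2 CPM, and Bhlhe40 60.6 and 12 CPM. Of the 6 granule exocytosis genes Stx11, a syntaxin needed for granule release, passed 2-fold, at 42.3 and 5.79 CPM. None of the 5 granule genes tested did. Serpinb9b, Prdm1, Bhlhe40 and Stx11 stayed under 100 CPM in each class and are named because they passed 2-fold.

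The gene that passed in the other direction was Fas, the receptor of Fas ligand, with 12.2 CPM in NK-like and 51.6 CPM in CD8 T-like cells. The granzyme genes Gzmc, Gzmd, Gzme, Gzmf, Gzmg and Gzmn, which lie beside Gzmb, had no UMI in NK-like cells, where 3 counts would be 1.22 CPM, and were picked after their values were seen. Runx3, which drives the CD8 lineage and cytotoxic genes, had 333 CPM in NK-like and 517 CPM in CD8 T-like cells. Lyst, needed for granule maturation, had 1882 CPM in the innate-like T-like cells, against 355 CPM in NK-like and 513 CPM in CD8 T-like cells.

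Over 18 classes of the other samples and 17094 genes, the genes most like each member by Pearson correlation of log2(CPM + 1) were in part other members. Prf1 was most like Nkg7 (r = 0.94), Tbx21 was the second for Fasl (0.90), and Prf1 was the third for Eomes (0.91). Gzma was most like Clip4 (0.96), with the NK receptor gene Klre1 as the third (0.95), and Gzmb was most like Gm2808 (0.92), with the NK receptor genes Klrc1 and Klrg1 as the second and the third (0.90 and 0.89). Gzmk was most like Chst2 (0.86), Nkg7 most like Samd3 (0.97), Fasl most like Ppm1j (0.90), Ccl5 most like Heatr9 (0.94) and Tbx21 most like ENSMUSG00000120697 (0.92). Eomes was most like Gm33460 (0.95), a gene on the other strand that overlaps it, so their reads may not be told apart. The classes share libraries and differ in depth, and the correlations describe these classes only. Of the 30 neighbours, 5 were shared with a Spearman ranking and 21 with a pseudocount of 10.

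In the thymus the same genes were low in CD8 lineage cells. The 441 CD8 lineage cells of the WT thymic samples had summed members of 39.0 CPM (28.1 to 52.8), and the 308 of the Mini samples 39.4 CPM (26.6 to 56.3). Over tenxP_1 to tenxP_4 the sums were 32.0, 57.2, 40.0 and 32.8 CPM, and over T-1-A, T-1-B, T-2-A and T-2-B they were 72.9, 49.6, 16.2 and 29.5 CPM. The sample sums of the kits overlapped. In DP-R thymocytes, which are rearranging the T cell receptor alpha chain and should not be cytotoxic, the sums were 14.7 and 10.1 CPM. At least 1 member UMI was found in 9.07% and 8.77% of CD8 lineage cells against 3.71% and 2.35% of DP-R cells, and in 4.22% and 4.04% against 1.54% and 0.976% at 1000 UMIs. The median depths were 2094 and 2308 UMIs in CD8 lineage and 2142 and 2025 UMIs in DP-R cells of the WT and Mini samples. These cells had Cd8a at 499 CPM with Cd4 at 45.6 CPM in the WT samples, and Cd8a at 501 and 504 CPM in the 2 clusters of the Mini samples. Cd8a alone does not mark the class, since some WT clusters in no class had Cd8a at 530 and 514 CPM with Cd4 at 686 and 456 CPM. In the Mini data the study could not tell CD8 single-positive cells apart by exclusive expression of Cd4 and Cd8a. With 1 of the 5 seeds no cluster of the WT samples met the markers of this class.

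Nkg7 and Prf1 ranked first and second among the members per kilobase of exon in the WT samples, at 14.2 and 4.68 CPM per kilobase. In the Mini samples Nkg7 also ranked first, at 17.3 CPM per kilobase, but Prf1 stood at 2.03 CPM per kilobase, below Gzmm at 3.57 and Gzma at 2.61, and each of these 3 had at most 4 UMIs. Nkg7 had 13.02 CPM (7.12 to 21.8) in the WT and 15.8 CPM (8.15 to 27.5) in the Mini samples, or 10.0 CPM without T-1-B, and Prf1 had 12.1 CPM (6.44 to 20.7) and 5.26 CPM (1.43 to 13.5), or 3.07 CPM without T-1-A. Nkg7 stood at 13.7, 4.76, 24.0 and 10.1 CPM in tenxP_1 to tenxP_4 and at 9.12, 26.7, 5.39 and 14.7 CPM in the Mini samples, and at 7.92 to 13.02 CPM over the 4 WT clusterings that formed the class. Prf1 stood at 9.14, 23.8, 8.00 and 10.1 CPM and at 18.2, 3.81, 5.39 and 0 CPM. Nkg7 was found in each of the 8 samples and Prf1 in 7. Among the thymic classes Prf1 was highest in CD8 lineage cells in the WT samples, but in the Mini samples B cells were higher, at 8.30 CPM. Gzmb and Gzmk had no UMI in CD8 lineage cells of either kit, where 3 counts would be 2.79 CPM in the WT and 3.94 CPM in the Mini cells. Gzma and Fasl had 2 UMIs each in each kit, Ccl5 had 2 and 0, and Tbx21 0 and 2, all at or under that limit. Naive-marked CD8 T-like cells of the other samples, measured with the same kit as the WT thymocytes, had Nkg7 at 31.1 CPM and Prf1 at 50.3 CPM.

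The innate-like thymocytes (526 WT cells and 207 Mini cells) had summed members of 158 CPM (144 to 173) and 148 CPM (127 to 171). The 4 WT samples had 179, 137, 124 and 187 CPM, and the 4 Mini samples 121, 89.4, 193 and 234 CPM. At least 1 member UMI was found in 40.1% and 38.2% of the cells, and in 15.96% and 16.1% at 1000 UMIs. The median depths of these cells were 4478 and 4284 UMIs, and both shares were above those of DP-R cells in each kit. WT cells among them that carried NK receptor genes had Rag1 at 511 CPM, and gamma-delta T-like cells had it at 496 CPM. Rag1 was at 61.4 CPM in CD8 lineage cells and at 1481 to 1875 CPM in DP-R clusters. The part that transcripts of DP-R cells or doublets play in these classes was not tested.

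Among innate-like thymocytes the cells that carried NK receptor genes had the highest summed members, and gave 309 of the 482 member UMIs in the WT and 73 of 182 in the Mini samples. Their clusters were led by Styk1 and Klrk1 in the WT samples and by Klra9, Klra7 and Styk1 in the Mini samples. They numbered 218 and 55 cells, with summed members of 374 CPM (334 to 418) and 535 CPM (419.7 to 673). Over the seeds the WT class held 118 to 220 cells with sums of 350.3 to 580.3 CPM. The WT cells had Ncr1 at 12.1 CPM, against 0 CPM in each of the other innate-like clusters, with Zbtb16 at 415 CPM and Cd3e at 193 CPM. The part that NK cells play in this class was not tested. Per kilobase of exon Fasl ranked first among the members in both kits, at 58.1 and 144 CPM per kilobase. Levels per kilobase of gene span were not computed for these cells, and the rank may differ there. Fasl spans 7.81 kb, against 1.18 kb for Nkg7 and 3.42 kb for Gzmb. The level of Fasl was 113 CPM (90.9 to 138) in the WT and 279 CPM (197 to 383) in the Mini samples. It stood at 112, 104, 105 and 121 CPM in tenxP_1 to tenxP_4 and at 217, 159, 309 and 461 CPM in the Mini samples, so that the kits did not overlap and the Mini samples were the higher. Kit, mice and class boundaries differ between these values and cannot be told apart. Tbx21 had 59.3 CPM (43.9 to 78.4), or 59.3 to 124 CPM over the seeds, and 88.0 CPM (45.5 to 154) in the Mini samples.

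Granzymes were also found in these cells, less evenly. Gzmb had 50.9 CPM (36.7 to 68.7) in the WT and 58.7 CPM (25.3 to 116) in the Mini samples, and Gzma 49.6 CPM (35.6 to 67.4) and 36.7 CPM (11.9 to 85.6). Gzmb stood at 87.3, 16.5, 81.3 and 42.3 CPM in the WT samples and at 54.4, 31.7, 47.6 and 115 CPM in the Mini samples. Gzma stood at 62.4, 49.4, 43.1 and 50.8 CPM and at 0, 0, 47.6 and 115 CPM, with T-1-A and T-1-B at 0. The Mini Gzma values rest on 5 UMIs, all in 6.45% of the 31 such cells of 1 sublibrary. The 24 such cells of the other sublibrary had none. The Mini values of these cells come from 15, 14, 18 and 8 cells. Over the seeds the WT levels ran from 50.9 to 98.3 CPM for Gzmb and from 45.2 to 76.1 CPM for Gzma. Gzmk had no UMI in either kit, where 3 counts would be 3.63 and 22.0 CPM. Ccl5 had 48.4 CPM in the WT samples, at 0, 54.9, 4.78 and 81.8 CPM in tenxP_1 to tenxP_4, so its level leaned on tenxP_2 and tenxP_4. In the innate-like class as a whole Ccl5 fell from 14.1 to 6.65 CPM without tenxP_4. Over the seeds the level in the WT cells with NK receptor genes ran from 28.1 to 48.4 CPM for Ccl5 and from 22.6 to 50.7 CPM for Nkg7.

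Eomes had 13.3 CPM (6.65 to 23.8) and 7.33 CPM (0.186 to 40.9) in the cells with NK receptor genes, from 11 UMIs and 1 UMI. Per kilobase of exon Eomes stood at 3.21 and 1.77 CPM and Tbx21 at 23.8 and 35.4, so Eomes was the lower in both kits. In the innate-like T-like cells of the other samples the pair stood at 0.183 and 86.6 CPM per kilobase. Of the 38 machinery genes 6 reached 100 CPM in the WT cells and 11 in the Mini cells. In CD8 lineage cells of either kit 7 did and in B cells of the other samples 5, so the WT count is not particular to these cells. No share of all genes at this level was taken. In the WT and Mini cells with NK receptor genes Serpinb9, the granzyme B inhibitor, had 183 and 323 CPM. Srgn, the proteoglycan that packs granules, had 248 and 257 CPM there, and 273 and 225 CPM in the whole innate-like class of the WT and Mini samples. It also reached 100 CPM in CD8 lineage cells of both kits and in B cells of the other samples.

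Gamma-delta T-like thymocytes differed from this pattern in that nearly all of their member UMIs were Gzma. Gzma gave 43 of the 50 member UMIs of 88 WT cells, at 94.3 CPM (68.2 to 127), with sample values of 151, 187, 17.4 and 53.4 CPM from 9, 24, 25 and 30 cells. In the 36 Mini cells Gzma gave 15 of 18 UMIs, at 74.3 CPM (41.6 to 123), with 211, 42.6, 31.4 and 83.7 CPM in the 4 samples from 8, 15, 4 and 9 cells. The 211 CPM of T-1-A were 6 UMIs in 12.5% of its 8 cells, a single cell. Fasl had 0 UMIs in the WT and 1 in the Mini gamma-delta T-like cells. The remaining innate-like cells, 220 and 116, had sums of 69.5 and 102 CPM, with Gzma at 24.3 and 17.9 CPM and Fasl at 12.4 and 42.4 CPM. In the WT samples 42 of their 43 Gzma UMIs came from a cycling cluster of 132 cells, with Mki67 at 1199 CPM, the gamma-delta genes Trdc at 111 and Sox13 at 75.1 CPM, and Gzma at 31.9 CPM. The other clusters, of 54 and 34 cells, had 1 and 0 Gzma UMIs. Over the seeds the levels of the remaining innate-like cells ran from 14.8 to 24.3 CPM and 11.05 to 17.9 CPM for Gzma, and from 11.9 to 28.7 CPM and 26.9 to 42.4 CPM for Fasl.

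**Figure D4:**
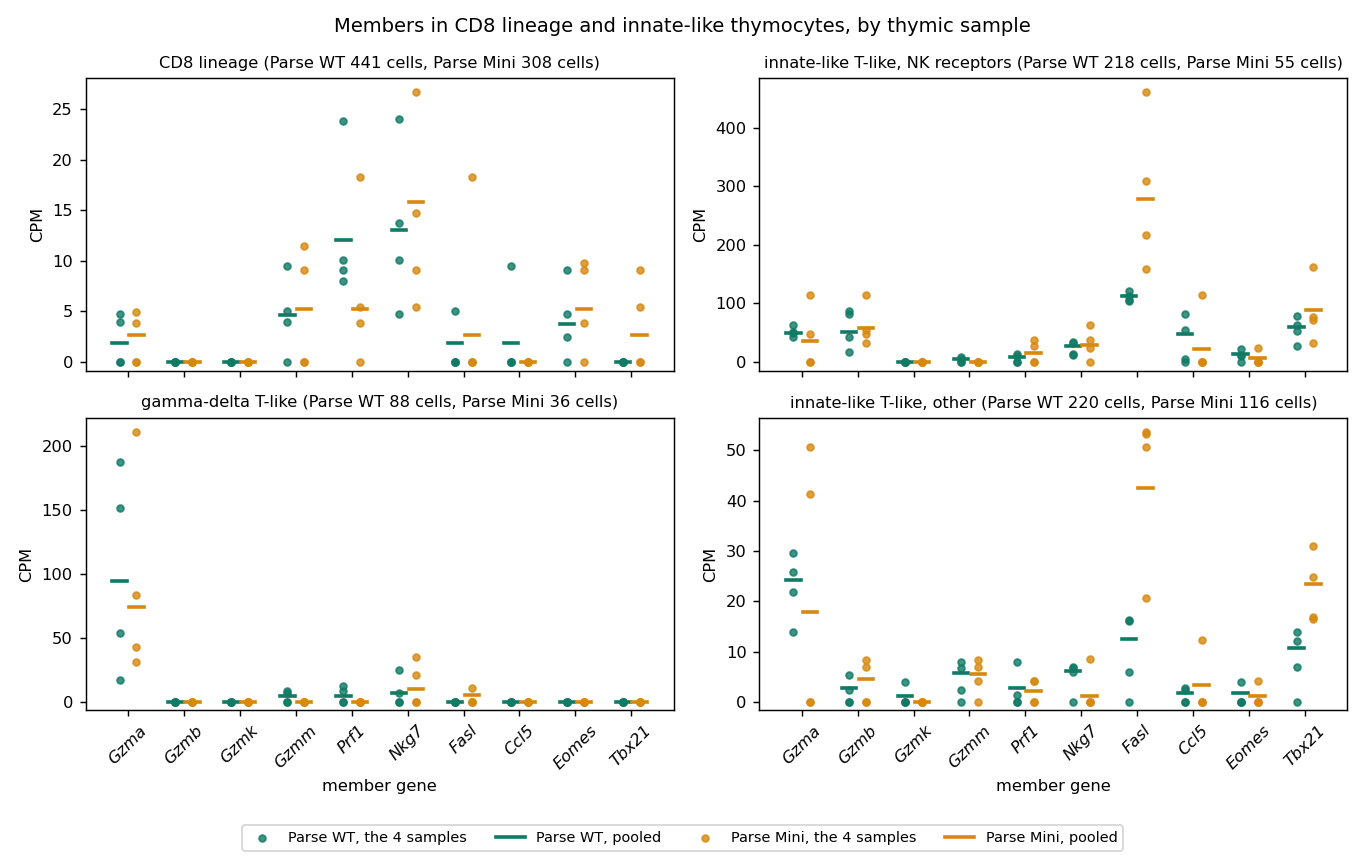
CPM of each member in CD8 lineage cells and in 3 kinds of innate-like thymocytes. Points are the 4 samples of a kit and bars the pooled level (green, Parse WT, and orange, Parse Mini), and each panel has its own axis. Fasl is highest in cells with NK receptors (113 and 279 CPM) and Gzma in gamma-delta T-like cells (94.3 and 74.3 CPM), while no member passes 13.02 and 15.8 CPM pooled in the CD8 lineage.

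Gzma was also found in thymocytes outside the innate-like class. A WT neutrophil cluster of 206 cells held it as well, at 21.7 CPM (13.2 to 33.5), with Rag1 at 622 CPM and Mki67 at 1079 CPM. The part that thymocyte transcripts play in that cluster was not tested. Of all Gzma UMIs in the WT thymic samples 58.7% came from proliferating cells (DP-P), which held 41.2% of the UMIs outside ribosomal RNA, and 7.39% from innate-like cells. In the Mini samples the shares were 46.9% and 5.99%, and proliferating cells held 32.3% of the UMIs outside ribosomal RNA. Proliferating cells had Gzma at 14.9, 17.6, 16.7 and 18.9 CPM in tenxP_1 to tenxP_4 and at 12.1, 17.5, 12.2 and 14.3 CPM in the Mini samples. DP-R cells had 6.69 to 8.56 CPM and 3.65 to 6.57 CPM, so that the sample values of the classes did not overlap in either kit.

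Gzma was uneven among cycling clusters. In the WT samples a proliferating cluster led by Gm41335, Hells and Cdc6, a gene of DNA replication licensing, had 29.7 CPM (27.1 to 32.5), and its 9 other members summed to 6.57 CPM. The cluster with the highest level of Mki67, a gene of cycling cells, had 12.9 CPM (10.0 to 16.2). In the Mini samples the cluster led by Gfra1, Gm41335 and Rad51b had 33.4 CPM (28.3 to 39.2), and the one with the highest Mki67 had 3.80 CPM (1.53 to 7.83). Unnamed Mini clusters with Mki67 at 1839, 1036 and 1032 CPM also held Gzma, at 37.2 CPM (18.6 to 66.6) in 113 cells, 29.99 CPM (13.7 to 56.9) in 444 cells and 19.2 CPM (15.0 to 24.3) in 735 cells. DN thymocytes, the earliest stage, had Gzma at 18.7 CPM (15.7 to 22.0) and 18.4 CPM (13.1 to 25.3), and their 9 other members summed to 17.7 and 23.8 CPM. Of the Mini sum Gzmb gave 7.28 CPM, from 15 UMIs in 1.19% of the 168 DN cells of 1 sublibrary. The 174 DN cells of the other sublibrary had no Gzmb UMI. In the CD8 lineage Gzma had 2 UMIs in each kit, under the limits of 2.79 and 3.94 CPM that 3 counts give, and the cluster and DN values of the same kit given here lay above these limits, except that of the Mini cluster with the highest Mki67.

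**Figure D5:**
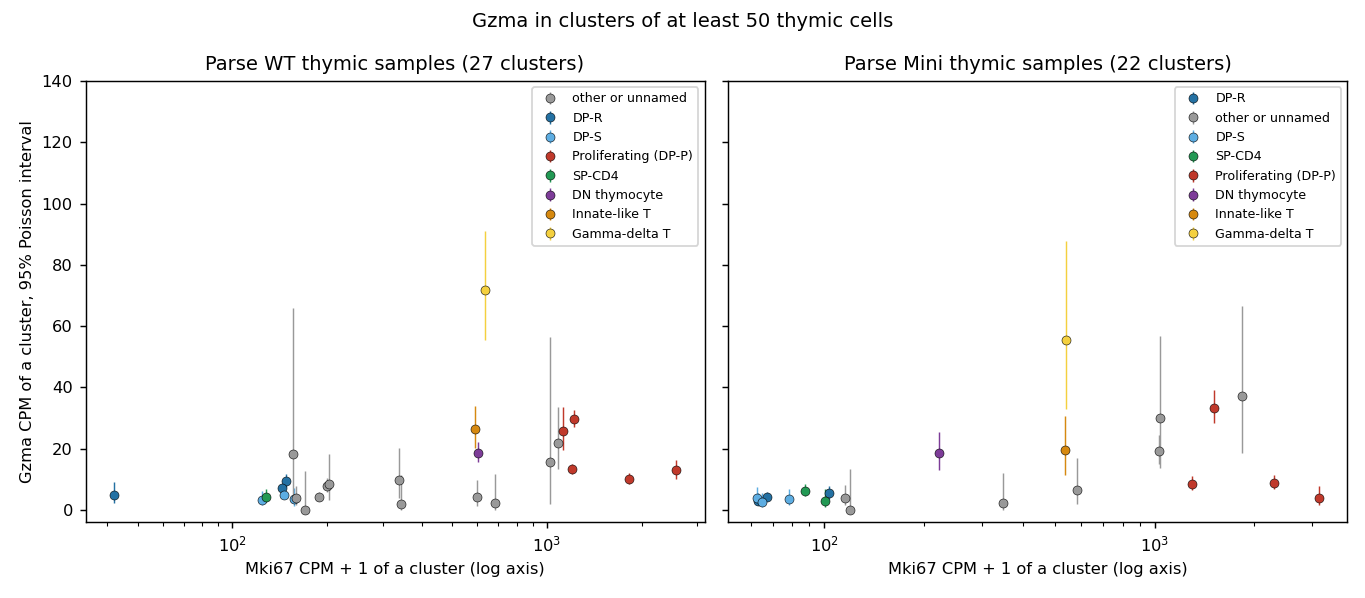
Gzma CPM (95% Poisson interval) against Mki67 CPM + 1 (log axis) in thymic clusters of at least 50 cells, coloured by the name each cluster was given. Gamma-delta T cells are highest (71.7 and 55.5 CPM), and among clusters named proliferating the highest Gzma (29.7 and 33.4 CPM) is not where Mki67 is highest.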

How the data were processed

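The deposited matrices hold UMI counts per cell and gene, 1 for the 20 samples of the Parse WT kit (9 sublibraries) and 1 for the 4 samples of the Parse Mini kit (2 sublibraries). The authors made these counts with split-pipe on an index of mm10, and no source used here states its version, the Ensembl release, the threshold for calling cells or the use of strand. The 10x libraries were not analysed here. Samples were taken from the cell metadata by their names.

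A cell was kept when it had 500 to 25000 UMIs, no more than 15% of them mitochondrial. Doublets were scored within each sample against summed pairs of its cells. As many were left out as barcode combinations are expected to hold more than 1 cell (0.493 to 6.67% per sample). This number does not count cells that stuck together, so such doublets can still be present. The study called a larger share of both Parse libraries doublets, by another computational method. Of the cells in the files, 92.0% of the other WT samples, 89.7% of the WT thymic samples and 91.4% of the Mini samples remained, and total UMIs per sample ran from 5405078 to 124106974. The ribosomal RNAs (mt-Rnr1, mt-Rnr2 and Rn18s-rs5), with 13.9 to 23.7% of the UMIs, were left out of the CPM denominator. A barcode combination occurred in 2 or more sublibraries for 34.9% of the WT and 13.5% of the Mini cells, each of which was taken as a cell of its own.

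Each set of samples was clustered in 2 rounds (2000 variable genes without the members, 30 and 20 principal components, 20 neighbours, Leiden resolution 1, seed 7), and clusters were named where at least 3 markers of a fixed list were raised 1.5-fold. Lymphocyte clusters in which over 20% of cells had a UMI of a B cell marker were set apart as mixed. Levels by sample are given for at least 20 cells in the 16 other WT samples and for any number of cells in the thymic samples, and a count of 0 was given the limit of 3 counts. No p-value was computed, since the classes were formed from the expression of the same cells, the 16 other samples have no group in the labels and the kits differ in their mice, and UMIs reduce but do not remove amplification duplicates. The 10 members and the gene lists were chosen with earlier results of these data known. Of 38 further genes of the pathway, those at 100 CPM in any class were named, with the 3 genes most like each member and at most 3 leading genes per cluster, and any other gene is said to have been picked after its values were seen. A few genes that these rules name are not reported here. Alternatives changed the upper UMI limit, the doublets, the cells with B cell UMIs, the CPM denominator, the averaging, the clustering genes, the resolution, the centring per well, the samples and the wells, and later the seed. Scripts were tested on simulated data. The tools were leidenalg 0.10.2, igraph 0.11.9, scikit-learn 1.9.0, SciPy 1.17.1, NumPy 2.4.6, pandas 2.3.3 and Matplotlib 3.10.9 in Python 3.11.15. Gene positions came from GENCODE M21 and promoters from RefSeq, both on GRCm38.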

Additional observations from a re-analysis of the deposited data

Results flagged for a closer look

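Each member's level was compared among the sublibraries of a kit in each class, and a value was marked where it lay far from the others by Dixon's test. Of the 39 sets of values with enough UMIs 8 were marked. Chance marks about 1 in 20 where values are equally precise, which these are not, so that rate does not apply to them. Of the 8 marks 7 came from sublibrary 9 of the WT kit, which held 32 CD8 T-like and 54 other T-like cells and gave 0 to 4 UMIs for each marked member. In its CD8 T-like cells Ccl5 and Gzmm had no UMI and stood at 0 CPM, against 66.7 to 99.1 CPM and 10.0 to 17.6 CPM in the other sublibraries. Nkg7 had 4 UMIs, or 59.5 CPM, against 30.4 to 41.2 CPM, and Tbx21 had 1 UMI, or 14.9 CPM, against 48.2 to 66.1 CPM. In its other T-like cells Ccl5 was at 0 CPM against 5.27 to 9.34 CPM. Eomes and Gzmk had 2 UMIs each there, or 18.8 CPM, against 1.79 to 5.44 CPM and 2.69 to 6.28 CPM. The last was Tbx21 in innate-like thymocytes of WT sublibrary 3, with 16 UMIs in 79 cells, or 38.5 CPM, against 17.1 to 24.0 CPM.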

How the results depend on the processing

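Class membership and depth limit these results. The seeds, the restriction to samples with at least 100 NK-like cells and the division of the NK-like class were chosen after seeing the data. With 1 seed no WT CD8 lineage class could be formed, and at 0.5 of the resolution none in the Mini samples. Depth limits members with few UMIs, since 3 counts are 1.22 CPM in NK-like cells but 22.0 CPM in Mini cells with NK receptor genes. No paired analysis was possible between the kits by replicate number, because these numbers count sublibraries of different mice. The pairing of NK-like and CD8 T-like cells within a sample is given as counts of samples by direction, with no test, since the classes were formed from the expression of the same cells. The causes of the shifts below were not tested.

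The summed members of NK-like cells, 1989.8 CPM, became 2131 CPM with called doublets kept, 2839.9 CPM at 2 times the resolution, and 2176 and 2964 CPM with other seeds. With all UMIs as the denominator the sums were 1580.2 CPM in NK-like, 265 CPM in CD8 T-like and 65.7 CPM in other T-like cells, and 119 and 126 CPM in WT and Mini innate-like thymocytes. As a mean over cells they were 2343 CPM in NK-like and 418 CPM in CD8 T-like cells, 230.2 and 223 CPM in WT and Mini innate-like and 50.1 CPM in Mini CD8 lineage cells. Within first-round wells the medians were 2193 CPM (1739 to 2426) in NK-like, 411 CPM (208 to 1261) in CD8 T-like and 27.2 CPM (0 to 132) in Mini CD8 lineage cells. WT innate-like thymocytes had 118 CPM at 2 times the resolution. Mini innate-like thymocytes had 119.9 CPM with no upper limit on UMIs, 119 CPM with doublets kept, 125 CPM with the centring of wells changed, and 126, 121 and 138 CPM with other seeds. Without each sample in turn the sums ran from 1899 to 2014 CPM in NK-like, 325 to 381 CPM in CD8 T-like, 82.5 to 87.4 CPM in other T-like, 34.7 to 42.7 and 33.8 to 46.9 CPM in CD8 lineage and 137 to 169 and 132 to 172 CPM in innate-like cells of the WT and Mini samples.

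The count of members higher in NK-like than in CD8 T-like cells in every sample, 2 over 13 samples, was 1 with doublets kept, with the members among the clustering genes, with well centring and with another seed (Tbx21 each time), and 1 as a mean over cells or without cells with B cell UMIs (Fasl). The background under these settings ran from 2.04% to 2.46% of genes. Over 5 samples, where the rule is easier to pass, the count was 8 at 2 times the resolution (background 16.6%), with another seed (15.8%) and in the samples with at least 100 NK-like cells (18.5%). The count was also 8 within 10 wells of the same 5 samples (8.11%), and 2 to 3 without a sample (2.35% to 2.89%). The share of cells with a member UMI, thinned to 1000 UMIs, fell from 88.2% to 77.9% in NK-like, 37.8% to 23.4% in CD8 T-like, 11.6% to 6.64% in other T-like, 9.07% to 4.22% and 8.77% to 4.04% in CD8 lineage, and 40.1% to 15.96% and 38.2% to 16.1% in innate-like cells of the WT and Mini samples. Of 960 values of single members under other settings 784 stayed within 1.5-fold, as did 95 of 96 sums. Without a sample, 590 of 640 values of members and each of the 64 sums did.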

Other observations

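Ccl5 was also high outside lymphocytes, in small dendritic cell clusters with Fscn1, a gene of mature dendritic cells, among their leading genes. In the other samples such a cluster of 134 cells had Ccl5 at 270.1 CPM (229 to 317), whereas the other dendritic cell clusters, of 736 and 265 cells, had 12.5 and 4.88 CPM. In the WT thymic samples the corresponding cluster of 53 cells had 93.5 CPM (61.6 to 136) and the other dendritic cell cluster, of 70 cells, had none. In the Mini samples the values were 46.6 CPM (18.7 to 95.96) in 27 cells and 0 CPM in 39 cells. As a class, Mini macrophages had Ccl5 at 23.8 CPM, against 21.9 CPM in Mini dendritic cells. Doublets of these cells with NK or T cells were not tested.

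Tbx21, the member with the highest summed UMIs in B cells, was uneven among the 12 B cell clusters of the other samples. A cluster of 1427 cells led by Parm1, Kcnt2 and Gm49164 had 112 CPM (101 to 123), and one of 1333 cells led by Mybl1, Nuggc and Rgs13, genes of germinal centre B cells, had 46.9 CPM (41.4 to 53.0). The lowest level, 1.63 CPM, was in the cluster of 2406 cells that came to 99.0% from CVS_C_5. The cluster with the highest level came from several samples, of which CVS_C_2 gave most cells, at 14.3%.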
